A study of Mus musculus with 8 samples.

Results

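The clustered replication-dependent histone genes make the bulk histones that package newly replicated DNA, and their RNA was compared between Myo5b knockout (KO) and control livers of newborn mice. Members were the protein-coding genes whose older symbol places them in the Hist1, Hist2, Hist3 or Hist4 group in GENCODE M21 (mouse build GRCm38), with at least 10 counts in at least 4 of the 8 libraries. Of 67 annotated genes, 65 had a line in the count table of 48440 genes, and 58 passed the minimum. These were 6 of 6 H1 genes, 14 of 18 H2A genes, 15 of 18 H2B genes, 10 of 12 H3 genes and 13 of 13 H4 genes. Of the 7 that did not pass, 6 were listed at 0 in every library, namely Hist2h2aa1, Hist2h2aa2, Hist2h3c1, Hist2h3b, Hist2h2bb and the testis gene Hist1h2aa. The other one, Hist2h2ab, had 5, 2, 5 and 8 counts in the KO livers, against 6, 12, 12 and 14 counts in the controls. Hist1h2bm and Hist1h2bh had no line and were not analysed here. Just inside the minimum were Hist1h1t, with 8, 22, 6 and 10 counts in the KO livers against 20, 14, 26 and 57 counts in the controls, and Hist3h2a, with 14, 7, 15 and 15 counts in the KO livers against 18, 9, 23 and 26 counts in the controls. The other 56 members had at least 10 counts in all 4 KO libraries, so their passing did not rest on the controls.

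The KO group was 4 CD1 pups with a germline deletion of Myo5b (animals 275, 276, 277 and 278), and the control group was 4 littermates that were heterozygous or wildtype for Myo5b (animals 279, 280, 281 and 282). The pups of both groups were between 3 and 8 days old, and whole-liver RNA was sequenced. The sources used here do not give the age, sex, litter or allele count of each pup, so a control may carry 1 deleted allele, and whether ages differed between the groups is unknown. Myo5b encodes a myosin motor that moves recycling endosomes and delivers transporters to the apical surface of epithelial cells, including the bile canaliculus of hepatocytes.

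Replication-dependent histone genes lie in clusters, have no introns in their main transcripts, and are switched on when a cell enters S phase. Their main transcripts end not in a poly(A) tail but in a short stem-loop, which is bound by stem-loop binding protein (Slbp) and read during 3′ end cutting, translation and the rapid decay of the RNA when replication stops. The newborn liver is rich in dividing cells, because its hepatocytes still multiply and because it still houses blood formation, chiefly of red-cell precursors. In whole liver, fewer cells of a type and less of an RNA per cell cannot be told apart.

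The stem-loop is shown here because it identifies the family and because libraries that select poly(A) tails would miss most transcripts that end in it, and the sources used here do not say how RNA was selected. In the GENCODE M21 transcripts of GRCm38, 41 of the 58 members held a 16-base match to the consensus, against 71 of all 21951 protein-coding genes (0.323%), and the other 17 had none within their annotated transcripts. Each sequence below runs 5′ to 3′ on the gene's own strand, with the 16 bases of the stem-loop in capitals and up to 5 flanking bases in lower case on either side. Among the 12 H4 members with a match, the stem opened with GGCCC in 10 and GGTCC in 2, whereas in the 29 members of the other classes it opened with GGCTC. The capitals lie at chr13:23739512-23739527 for Hist1h1c, chr13:23570668-23570683 for Hist1h2ae, chr11:58949349-58949364 for Hist3h2ba, chr13:23745047-23745062 for Hist1h3c, chr13:23581950-23581965 for Hist1h4d and chr13:23757366-23757381 for Hist1h4b, with Hist1h2ae and Hist1h3c on the minus strand and the others on the plus strand.
Hist1h1c: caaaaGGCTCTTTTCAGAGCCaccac
Hist1h2ae: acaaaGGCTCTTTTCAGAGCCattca
Hist3h2ba: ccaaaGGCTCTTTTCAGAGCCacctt
Hist1h3c: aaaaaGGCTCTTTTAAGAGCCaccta
Hist1h4d: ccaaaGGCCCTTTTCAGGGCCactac
Hist1h4b: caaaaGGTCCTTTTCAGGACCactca
Of the 41, 21 held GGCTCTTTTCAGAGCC, 7 held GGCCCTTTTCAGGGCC and 6 held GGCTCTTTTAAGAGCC. In 21 members an annotated transcript ran more than 100 bases past the hairpin, as polyadenylated histone transcripts do. Their median log2 fold change, KO over control, was -1.32, and that of the 20 other members with a hairpin was -1.43.

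Library totals ran from 14228268 to 18398039 counts. Values below are CPM, a gene's counts scaled to library size (TMM), in the order of animals 275, 276, 277 and 278 for the KO and 279, 280, 281 and 282 for the controls. Differences were tested with edgeR's quasi-likelihood F-test and adjusted by Benjamini-Hochberg over the 18274 genes tested, with a threshold of 0.05. At that threshold 20.7% of all genes tested differed in either direction, 11.4% being lower and 9.27% higher in KO livers. A count of 0 in a library allows up to 0.158 to 0.21 CPM (3 counts), for counting error only. Myo5b itself, which checks the labels, had 47.3, 43.1, 47.5 and 59.5 CPM in the KO livers, against 172, 144, 121 and 93.96 CPM in the controls. Every KO liver lay below every control, and the log2 fold change was -1.43 (SE 0.18, adjusted p = 3.14e-04), though the sources used here do not say which exons the deletion removes.

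The replication-dependent histone genes were lower in KO livers as a family. All told, 55 of the 58 members fell, where 11.4% of all genes tested fell, and 0 rose, where 9.27% of all genes rose. All 58 log2 fold changes were negative, so 0 members were higher at any unadjusted p, and DESeq2 and limma-voom also called 0 higher. The 3 that did not pass the test were Hist1h2ab, Hist1h1t and Hist3h2a, with adjusted p of 0.0683, 0.0789 and 0.333. The median log2 fold change over the 58 members was -1.39, with quartiles of -1.52 and -1.27, while the median over all genes tested was 0.0093. A fall of at least 2-fold that passed the test was found in 51 members, and in 3.68% of all genes tested. In 55 members every KO liver lay below every control, which held for 12.8% of all genes tested. Markers of red-cell precursors were lower in the same livers (24 of 24, with a median log2 fold change of -1.82), and with their level as a covariate 0 members passed the threshold, as described with the cell type markers.

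Summed over the members, the level was 2385, 2579.8, 2419 and 3621 CPM in the KO livers, against 7480.2, 5793, 5694 and 7169 CPM in the controls. The means were 2751 ± 586 CPM in KO livers and 6534 ± 923 CPM in controls (SD, n = 4 each), a ratio of 0.421. Thus KO 278 was the highest of the KO livers and controls 279 and 282 the highest of the controls, and the groups did not overlap. As a share of all counts, the members took 0.281 ± 0.0597% of a KO library and 0.637 ± 0.0961% of a control library (SD, n = 4 each). Within the KO group, KO 278 held the highest value in 52 of the 58 members. Among the controls, 279 was highest in 32 members and control 280 lowest in 26 members.

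**Figure D1:**
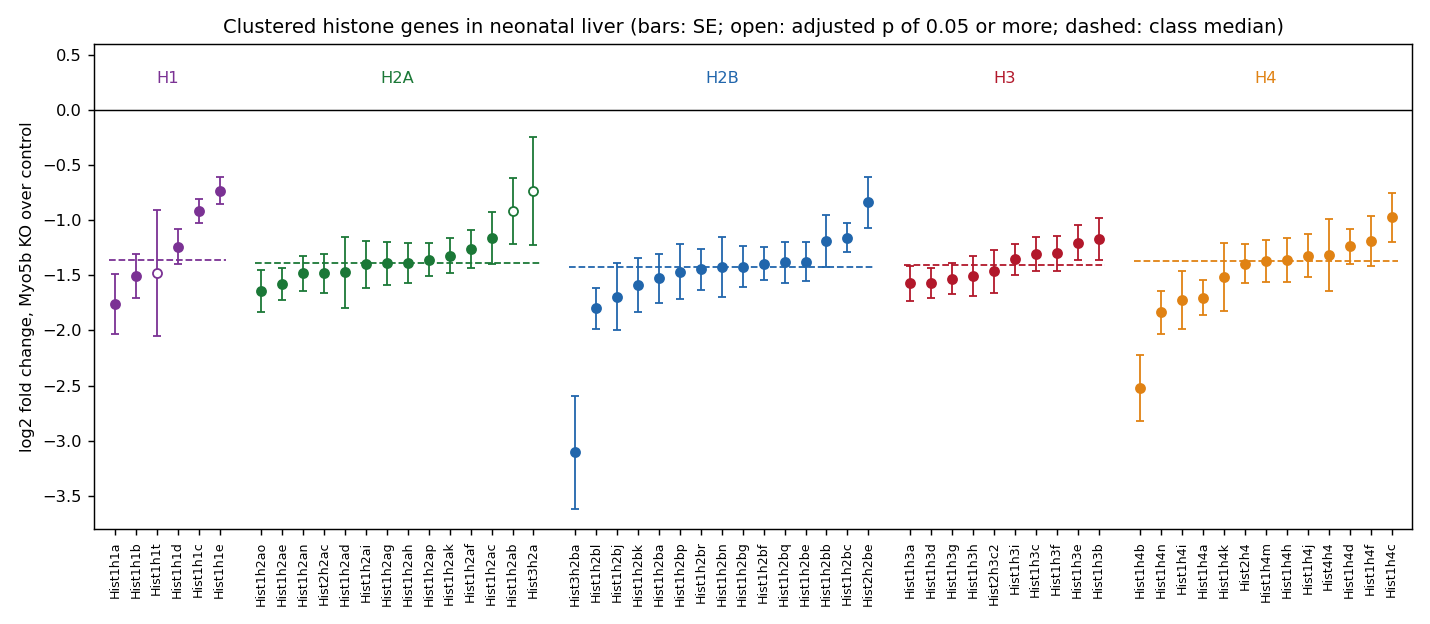
Log2 fold change (Myo5b KO over control, 4 livers each) of the 58 members, sorted within each histone class; bars are the SE, dashed lines the class medians, and open circles the 3 members with an adjusted p of 0.05 or more. All points lie below 0, from -3.11 for Hist3h2ba to -0.73 for Hist1h1e, with class medians between -1.43 (H2B) and -1.36 (H1).

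The H1 genes encode the linker histones, which bind the DNA between nucleosomes and compact chromatin. Their summed level was 1122, 1148, 1263 and 1670.5 CPM in the KO livers, against 3123, 2474, 2456 and 2901 CPM in the controls, a ratio of means of 0.475. This was the least reduced of the 5 classes on that measure, as the ratio was between 0.371 (H2B) and 0.391 (H2A) in the core histone classes, a difference that was not tested. Of the 6 H1 genes 5 fell. Hist1h1c, which encodes H1.2, was the most abundant member per kilobase of exon (416 CPM per kb over the 8 libraries) and lies at chromosome 13, 23738808 to 23740367, plus strand. It had 400.5, 407, 445 and 549.7 CPM in the KO livers, against 977, 793, 761 and 860.5 CPM in the controls, a log2 fold change of -0.91 (SE 0.11, adjusted p = 1.80e-05). KO 278 was the highest KO liver and was below the lowest control, control 281.

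Hist1h1e, which encodes H1.4, had 303, 301, 398 and 439 CPM in the KO livers, against 675, 542, 566 and 606 CPM in the controls. Its log2 fold change of -0.73 (SE 0.12, adjusted p = 5.30e-04) was the smallest fall among the members that passed the test, and the KO and control ranges did not overlap. Its exons overlap 496 bases of the annotated gene Hist1h2be on the same strand, so reads there could be counted for either gene. Hist1h1d, which encodes H1.3, had 249, 249, 271 and 392 CPM in the KO livers, against 792, 616, 589.6 and 747 CPM in the controls, with a log2 fold change of -1.24 (SE 0.16, adjusted p = 2.23e-04). KO 278 stood apart here, and the highest KO liver was still below the lowest control. Hist1h1b (H1.5) had 107, 125, 93.1 and 169 CPM in the KO livers, against 399.6, 310.1, 286 and 406 CPM in the controls, with a log2 fold change of -1.51 (SE 0.20, adjusted p = 9.54e-04). Hist1h1a (H1.1) had 61.8, 63.8, 54.4 and 121 CPM in the KO livers, against 277, 212, 251 and 278 CPM in the controls, with a log2 fold change of -1.76 (SE 0.28, adjusted p = 0.00463), the lowest value in the class. In both genes KO 278 was the highest KO liver and no KO liver reached a control. Hist1h1t, the linker histone of the testis, was close to the detection limit at 0.464, 1.41, 0.316 and 0.607 CPM in the KO livers, against 1.30, 0.939, 1.54 and 4.00 CPM in the controls. Its log2 fold change was -1.48 (SE 0.57, adjusted p = 0.0789), and KO 276 lay above 2 of the controls. Without KO 276 the gene passed the test, with a log2 fold change of -2.06.

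The log2 fold changes of the H1 genes spread widely, and the mix of H1 counts differed between the groups. Hist1h1a made up 5.65 ± 1.20% of H1 counts in KO livers and 9.31 ± 0.75% in controls, and Hist1h1b 9.47 ± 1.51% in KO livers and 12.7 ± 0.96% in controls (SD, n = 4 each). Hist1h1d made up 22.2% of H1 counts in KO livers (21.5 to 23.5%) and 25% in controls (24 to 25.7%). The shares of Hist1h1e and Hist1h1c were higher in KO livers: Hist1h1e made up 27.8 ± 2.54% in KO livers and 21.9 ± 0.90% in controls, and Hist1h1c 34.8 ± 1.30% in KO livers and 31.0 ± 0.999% in controls (SD, n = 4 each). For each of these 5 genes the KO and control shares did not overlap. The shares are parts of 1 whole, so they are given as a description, with no test of their own. As a share of all member counts, H1 took 47.5 ± 3.32% in KO livers and 42.0 ± 1.18% in controls (SD, n = 4 each).

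**Figure D2:**
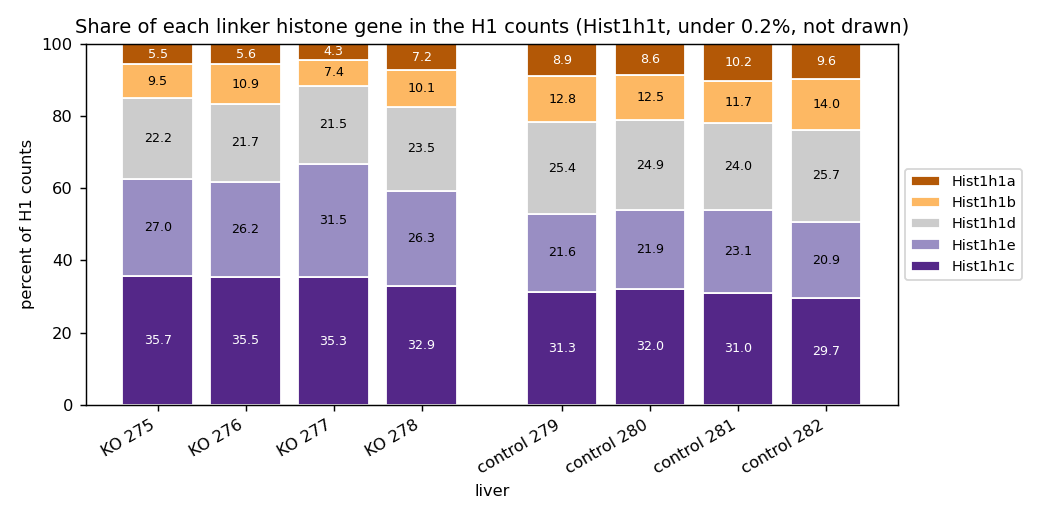
Percent of all H1 counts from each linker histone gene in the 4 KO and 4 control livers (stacked bars; Hist1h1t, under 0.2%, is not drawn). Hist1h1e takes 26.2 to 31.5% in KO livers and 20.9 to 23.1% in controls, and Hist1h1a takes 4.31 to 7.23% in KO livers and 8.55 to 10.2% in controls.

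The H2A genes encode 1 of the 4 core histones that form the nucleosome, where H2A pairs with H2B. Of the 14 H2A members 12 fell, with a class median log2 fold change of -1.39 and a range of -1.64 (Hist1h2ao) to -0.73 (Hist3h2a). Summed over the class, the level was 232, 263, 198 and 367 CPM in the KO livers, against 763, 620.2, 618 and 708 CPM in the controls. The highest class sum among the KO livers, in KO 278, was below the lowest control. Hist1h2ah, the most abundant H2A member by CPM (chromosome 13, 22035164 to 22035568, minus strand), had 53.1, 61.5, 51.9 and 84.05 CPM in the KO livers, against 206, 141, 139 and 171 CPM in the controls, a log2 fold change of -1.39 (SE 0.18, adjusted p = 5.62e-04). Hist1h2ap had 27.3, 32.8, 22.4 and 37.9 CPM in the KO livers, against 90.98, 68.2, 70.5 and 78.5 CPM in the controls, a log2 fold change of -1.36 (SE 0.15, adjusted p = 2.18e-05). Hist2h2ac, on chromosome 3, had 21.4, 24.3, 22.2 and 38.2 CPM in the KO livers, against 87.9, 68.5, 66.97 and 73.3 CPM in the controls, a log2 fold change of -1.48 (SE 0.18, adjusted p = 1.41e-04). In all 3 genes control 279 was the highest liver, KO 278 the highest KO liver, and the groups did not overlap.

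Hist1h2ae had the smallest p of the members, with 15.3, 16.4, 10.8 and 17.4 CPM in the KO livers, against 49.9, 37.4, 44.5 and 47.3 CPM in the controls and a log2 fold change of -1.58 (SE 0.15, adjusted p = 1.85e-06). Here the highest KO liver, KO 278, was below the lowest control, control 280. Hist1h2an had 12.8, 14.4, 11.1 and 20.6 CPM in the KO livers, against 45.7, 39.8, 37.9 and 40.7 CPM in the controls, with a log2 fold change of -1.48 (SE 0.16, adjusted p = 8.98e-06), again with no overlap of the groups. Hist1h2ab did not pass the test: it had 16.1, 17.4, 11.8 and 33.4 CPM in the KO livers, against 30.7, 40.8, 36.9 and 39.7 CPM in the controls, with a log2 fold change of -0.91 (SE 0.30, adjusted p = 0.0683). Its KO 278 value was above that of control 279, and the other 3 KO livers were below all controls. Without KO 278 the gene passed the test, with a log2 fold change of -1.29. Hist3h2a, a gene on chromosome 11 that overlaps exons of Trim17, had 0.812, 0.447, 0.790 and 0.910 CPM in the KO livers, against 1.17, 0.603, 1.37 and 1.82 CPM in the controls, a log2 fold change of -0.73 (SE 0.49, adjusted p = 0.333), and its groups overlapped. The other 7 H2A members all fell, with log2 fold changes of -1.64 (Hist1h2ao) to -1.16 (Hist1h2ac). Most H2A genes overlap a short annotated gene on the opposite strand, and the sources used here do not say whether strand was counted.

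All 15 H2B members fell, with a class median log2 fold change of -1.43. Their summed level was 309, 369, 299 and 499.7 CPM in the KO livers, against 1153, 863, 810.4 and 1159.5 CPM in the controls, and the groups did not overlap. Hist1h2be had 48.7, 58.1, 47.5 and 74.4 CPM in the KO livers, against 176, 135, 115 and 168 CPM in the controls, a log2 fold change of -1.38 (SE 0.18, adjusted p = 3.91e-04). Hist1h2bq had 39.3, 47.9, 36.7 and 61.6 CPM in the KO livers, against 141, 107, 96.6 and 139 CPM in the controls, a log2 fold change of -1.38 (SE 0.19, adjusted p = 6.30e-04). Hist1h2bn had 29.8, 40.1, 33.4 and 63.8 CPM in the KO livers, against 118, 101, 89.1 and 142 CPM in the controls, a log2 fold change of -1.43 (SE 0.27, adjusted p = 0.00972). These were the most abundant H2B members by CPM, and in each the highest KO liver, KO 278, was below the lowest control, control 281.

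Hist1h2bf and Hist1h2bc had the smallest p of the class. Hist1h2bf had 13.2, 14.4, 15.8 and 20.4 CPM in the KO livers, against 50.4, 36.1, 36.3 and 45.2 CPM in the controls, a log2 fold change of -1.40 (SE 0.15, adjusted p = 6.90e-06). Hist1h2bc had 29.4, 38.2, 35.1 and 43.6 CPM in the KO livers, against 89.5, 74.8, 67.7 and 94.3 CPM in the controls, a log2 fold change of -1.16 (SE 0.13, adjusted p = 1.34e-05). In both every KO liver was below all controls. The extremes of the class were genes of low level outside the Hist1 clusters. Hist3h2ba, on chromosome 11 (58948920 to 58949533, plus strand), had 1.62, 0.639, 0.948 and 3.64 CPM in the KO livers, against 19.7, 14.5, 7.96 and 16.97 CPM in the controls, and its log2 fold change of -3.11 (SE 0.51, adjusted p = 0.00298) was the lowest of the members; without KO 278 it was -3.77. No KO liver reached a control. Hist2h2be, an H2B gene known in mice for its use in olfactory neurons, had 3.83, 3.13, 3.05 and 2.55 CPM in the KO livers, against 6.10, 5.16, 5.46 and 5.75 CPM in the controls, with a log2 fold change of -0.84 (SE 0.23, adjusted p = 0.0165). Unlike in most members, KO 278 was the lowest KO liver in Hist2h2be, and the groups did not overlap. Hist1h2ba, the H2B gene of the testis, averaged 7.20 ± 1.96 CPM in KO livers and 20.8 ± 6.03 CPM in controls (SD, n = 4 each) and also fell, with a log2 fold change of -1.53 (SE 0.23, adjusted p = 2.22e-04). The other 7 H2B members all fell, with log2 fold changes of -1.80 (Hist1h2bl) to -1.19 (Hist1h2bb). Hist1h2bl averaged 17.4 ± 2.90 CPM in KO livers and 60.4 ± 16.4 CPM in controls (SD, n = 4 each).

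All 10 H3 members fell, within a narrow range of -1.57 (Hist1h3a) to -1.17 (Hist1h3b) and with a class median of -1.41. H3 carries much of the regulated methylation and acetylation of chromatin. The summed H3 level was 348, 384, 303 and 514 CPM in the KO livers, against 1122, 877, 874 and 1104 CPM in the controls, a ratio of means of 0.389. Hist2h3c2, the most abundant H3 member by CPM (chromosome 3, 96238108 to 96239127, minus strand), had 63.00, 61.1, 58.2 and 100.5 CPM in the KO livers, against 221, 171, 166 and 223 CPM in the controls, a log2 fold change of -1.46 (SE 0.20, adjusted p = 8.70e-04). Hist1h3c had 52.1, 63.97, 48.03 and 75.98 CPM in the KO livers, against 173, 129.6, 127 and 164 CPM in the controls, a log2 fold change of -1.30 (SE 0.15, adjusted p = 1.11e-04). Hist1h3e had 51.3, 62.8, 45.6 and 78.6 CPM in the KO livers, against 155, 125, 123 and 146 CPM in the controls, a log2 fold change of -1.20 (SE 0.16, adjusted p = 2.61e-04). Each of these had its highest KO value in KO 278, and each KO value was below all controls. The smallest p in the class belonged to Hist1h3d and Hist1h3g. Hist1h3d had 25.9, 29.6, 25.9 and 38.3 CPM in the KO livers, against 97.6, 76.02, 80.2 and 101 CPM in the controls, a log2 fold change of -1.57 (SE 0.13, adjusted p = 1.94e-06). Hist1h3g had 19.5, 19.2, 14.96 and 23.5 CPM in the KO livers, against 61.9, 49.9, 47.2 and 64.02 CPM in the controls, a log2 fold change of -1.53 (SE 0.14, adjusted p = 2.02e-06). Both were lower in every KO liver than in any control. The other 5 H3 members were Hist1h3a, Hist1h3h, Hist1h3i, Hist1h3f and Hist1h3b, and each was also lower in every KO liver than in any control. Of these Hist1h3b averaged 58.1 ± 17.1 CPM in KO livers and 131 ± 13.3 CPM in controls (SD, n = 4 each), and Hist1h3a averaged 24.4 ± 5.54 CPM in KO livers and 72.6 ± 11.4 CPM in controls (SD, n = 4 each).

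All 13 H4 members fell, with a class median log2 fold change of -1.37, and H4 had the widest range among the members on chromosome 13. The H4 genes encode the same or nearly the same protein. Their summed level was 374, 415, 356 and 569.8 CPM in the KO livers, against 1319.9, 959, 935 and 1296 CPM in the controls. Hist1h4d, the most abundant H4 member by CPM (chromosome 13, 23581598 to 23582735, plus strand), had 98.6, 105, 90.01 and 145 CPM in the KO livers, against 295, 229, 218 and 291 CPM in the controls, a log2 fold change of -1.24 (SE 0.16, adjusted p = 2.71e-04). Hist1h4h had 42.9, 53.8, 36.1 and 61.2 CPM in the KO livers, against 146, 114, 92.4 and 145 CPM in the controls, a log2 fold change of -1.36 (SE 0.20, adjusted p = 0.00142). Hist1h4j had 32.1, 32.8, 28.1 and 45.3 CPM in the KO livers, against 102, 66.5, 70.7 and 107 CPM in the controls, a log2 fold change of -1.32 (SE 0.20, adjusted p = 0.00111). The groups did not overlap in these genes, and KO 277 was the lowest liver in each.

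Other H4 genes differed more between the groups. Hist1h4b (chromosome 13, 23757013 to 23757409, plus strand) had 8.99, 8.44, 10.7 and 6.68 CPM in the KO livers, against 80.00, 34.5, 36.8 and 49.7 CPM in the controls, a log2 fold change of -2.52 (SE 0.30, adjusted p = 5.04e-04). Hist1h4n had 22.6, 24.2, 19.8 and 25.8 CPM in the KO livers, against 111, 59.9, 64.8 and 93.2 CPM in the controls, a log2 fold change of -1.84 (SE 0.20, adjusted p = 1.15e-04). Hist1h4a had 18.5, 19.7, 20.4 and 19.3 CPM in the KO livers, against 85.00, 49.1, 50.5 and 69.4 CPM in the controls, a log2 fold change of -1.70 (SE 0.16, adjusted p = 4.83e-06). In Hist1h4b, KO 278 was the lowest KO liver and control 279 stood far above the other controls; the overlap of its exons with the opposite-strand gene 4930558J22Rik covers 223 bases. In Hist1h4a the KO livers lay close together. Hist1h4b, Hist1h4a, the H3 gene Hist1h3a and Hist1h1a are consecutive members between 23757013 and 23764406 of chromosome 13, a stretch picked here after its values were seen, and their log2 fold changes were -2.52, -1.70, -1.57 and -1.76. The members just before the stretch, Hist1h2ab and Hist1h3b, had -0.91 and -1.17. The next member after it, Hist1h2ba, which begins at 23933773, had -1.53. At the other end of the H4 range, Hist1h4c averaged 30.7 ± 10.99 CPM in KO livers and 60.3 ± 8.92 CPM in controls (SD, n = 4 each), a log2 fold change of -0.97 (SE 0.22, adjusted p = 0.0132). Hist4h4, the only Hist4 gene, on chromosome 6, had 15.1, 31.7, 27.8 and 47.03 CPM in the KO livers, against 66.1, 83.2, 85.6 and 67.2 CPM in the controls, a log2 fold change of -1.32 (SE 0.33, adjusted p = 0.0310). KO 275 and KO 278 were far apart in Hist4h4, and its groups did not overlap. Its call was lost without KO 276 (-1.34), KO 277 (-1.28), control 279 (-1.37), control 280 (-1.27), control 281 (-1.25) or control 282 (-1.37). The other 5 H4 members, Hist1h4i, Hist1h4k, Hist2h4, Hist1h4m and Hist1h4f, all fell, with log2 fold changes of -1.72 (Hist1h4i) to -1.19 (Hist1h4f).

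By position, the 51 Hist1 members form 2 stretches of chromosome 13. The 22 members between 21715763 and 22043676 all fell, with a median log2 fold change of -1.46, and 27 of the 29 members between 23531050 and 23934156 fell, with a median of -1.30. The 4 Hist2 members, on chromosome 3 between 96220361 and 96263311, all fell, with a median of -1.43. Near-identical copies limit what the counts of a single gene show, since the sources used here do not say how reads with several matches were counted. In 28 members fewer than 50% of the 50-base windows of their exons occur in no other gene, and their median log2 fold change was -1.44. Both strands were searched, so an overlapping gene on the opposite strand lowers the share of unique windows just as a copy does. In the 30 members with at least 50% unique windows the median was -1.34, and 28 of these fell. Hist1h1a, Hist1h1b, Hist1h1t and Hist2h2be were unique in all windows. Hist3h2ba was unique in 77.9% and Hist1h4b in 24.1% of windows, so the Hist1h4b value is uncertain. Part of the low Hist1h4b share comes from its 223-base overlap with the opposite-strand gene 4930558J22Rik. The 5 Hist2 genes listed at 0 had 0% unique windows and lie under other annotated genes, so their 0 does not show that they were silent, and no detection limit is read from it.

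Many H2A and H2B genes stand head to head. Among the annotated genes 12 such pairs start within 500 bp of each other on opposite strands, and in 11 both genes were members, with starts 176 to 302 bp apart. The median absolute difference in log2 fold change within a pair was 0.16, and in 10 of the 11 pairs it was within 2 combined SE. Over the 199 other combinations of an H2A and an H2B member the median was 0.21, and 176 lay within 2 combined SE, so a small difference is not particular to the pairs. In the closest pair Hist1h2ac had -1.16 and Hist1h2bc -1.16. In the pair that differed the most, Hist2h2ac had -1.48 (SE 0.18) and Hist2h2be -0.84 (SE 0.23), a difference of 0.65 or 2.20 combined SE. In the twelfth pair the H2B gene Hist1h2ba fell, and its partner Hist1h2aa was listed at 0. The values of a pair come from the same libraries and are not independent of each other.

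**Figure D3:**
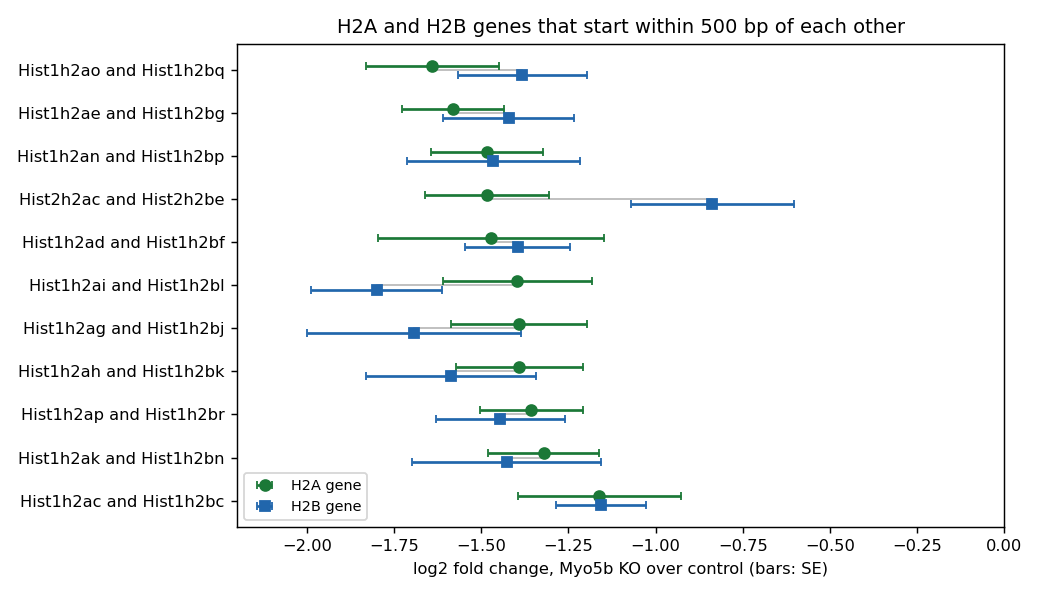
Log2 fold change (Myo5b KO over control) of the H2A gene (circle) and the H2B gene (square) of the 11 head-to-head pairs; bars are the SE. The symbols of a pair lie within 2 combined SE in 10 pairs, and Hist2h2ac (-1.48) and Hist2h2be (-0.84) lie farthest apart.

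Promoter sequences are shown for 4 members to set beside these values the elements histone promoters are known for. They were taken from RefSeq (build GRCm38.p6, 250 bases before to 50 after the start), where 53 of the 58 members matched. The letters searched, on both strands, were the octamer ATTTGCAT bound by Pou2f1 (Oct-1), the CCAAT box, the TATA box (TATAAA) and the H1 box (AAACACA). The octamer occurred in 10 of 53 member promoters (18.9%), 6 of 14 for H2A and 4 of 13 for H2B, against 1.75% of all 27025 promoters. CCAAT occurred in 44 of 53 (83.0%), against 37.9% of all, with 3 of 12 for H4. TATAAA occurred in 32 of 53 (60.4%), against 14.2% of all, and the H1 box in 5 of 6 H1 promoters, against 7.14% of all. Windows of head-to-head H2A and H2B genes can overlap, so the same site can count for both genes. Hist1h2ae and Hist1h2bg share their octamer in this way, as do Hist1h2ah and Hist1h2bk, so these counts are not of separate sites. Each sequence runs 5′ to 3′ on the gene's strand with the matches to either strand of a motif in capitals, and no motif contains another: Hist1h1e at chr13:23622509-23622808 (minus strand), Hist1h1a at chr13:23763418-23763717 (plus strand), Hist1h2bg at chr13:23571150-23571449 (plus strand) and Hist1h4b at chr13:23756687-23756986 (plus strand).
Hist1h1e: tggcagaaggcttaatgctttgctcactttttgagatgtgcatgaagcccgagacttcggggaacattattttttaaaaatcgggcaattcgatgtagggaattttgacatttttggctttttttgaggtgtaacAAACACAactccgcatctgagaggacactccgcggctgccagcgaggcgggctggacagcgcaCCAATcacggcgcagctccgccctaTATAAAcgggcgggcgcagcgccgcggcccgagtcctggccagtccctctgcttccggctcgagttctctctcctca
Hist1h1a: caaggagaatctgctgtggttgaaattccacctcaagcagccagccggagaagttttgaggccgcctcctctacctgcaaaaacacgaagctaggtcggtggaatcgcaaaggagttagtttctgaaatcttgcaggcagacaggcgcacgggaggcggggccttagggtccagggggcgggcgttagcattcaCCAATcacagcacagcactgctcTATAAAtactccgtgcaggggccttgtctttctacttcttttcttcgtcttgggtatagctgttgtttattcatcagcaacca
Hist1h2bg: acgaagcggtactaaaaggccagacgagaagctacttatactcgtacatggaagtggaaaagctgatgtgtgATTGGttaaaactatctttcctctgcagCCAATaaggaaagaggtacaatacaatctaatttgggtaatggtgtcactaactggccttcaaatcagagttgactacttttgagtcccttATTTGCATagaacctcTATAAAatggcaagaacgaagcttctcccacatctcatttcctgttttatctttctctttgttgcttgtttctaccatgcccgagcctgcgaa
Hist1h4b: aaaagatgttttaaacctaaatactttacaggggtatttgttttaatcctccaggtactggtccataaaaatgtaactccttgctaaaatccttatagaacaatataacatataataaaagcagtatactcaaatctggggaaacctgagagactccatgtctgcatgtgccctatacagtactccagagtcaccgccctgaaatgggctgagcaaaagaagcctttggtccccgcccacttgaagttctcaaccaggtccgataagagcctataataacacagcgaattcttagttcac
Promoters with like motifs stood beside different log2 fold changes. Hist1h1e and Hist1h1b both held an H1 box, CCAAT and TATAAA, and had -0.73 and -1.51, while Hist1h1a, the H1 promoter in which the letters of the H1 box were not found, had -1.76. Hist1h2bg, with the octamer, had -1.42. The 3 windows with none of the 4 motifs were those of Hist1h4b, Hist1h4h and Hist4h4, which had -2.52, -1.36 and -1.32. For Hist1h4b the RefSeq start lies 76 bases before the GENCODE start. Its window ends at 23756986 and the GENCODE gene begins at 23757013, so the bases just before that start were not searched. A match is a description of letters, not of a bound site.

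Of 16 genes of histone mRNA 3′ processing and decay, 3 fell and 1 rose, with a median log2 fold change of -0.24. These 4 calls of 16 are close to the share of all genes tested that differed in either direction, 20.7%. Slbp, whose protein binds the stem-loop, had 28.6, 33.9, 29.3 and 42.2 CPM in the KO livers, against 64.03, 56.4, 55.3 and 73.7 CPM in the controls, a log2 fold change of -0.90 (SE 0.13, adjusted p = 1.27e-04). Every KO liver had less Slbp RNA than any control. Eri1, the exonuclease that trims the histone 3′ end, had 30.3, 28.2, 24.4 and 33.1 CPM in the KO livers, against 49.5, 42.7, 38.6 and 43.8 CPM in the controls, a log2 fold change of -0.59 (SE 0.12, adjusted p = 0.00158). Cpsf2, a subunit of the cutting complex, fell by 0.39 and Tut7, which adds uridines to RNA ends, rose by 0.30 on the log2 scale. Lsm10 and Lsm11, subunits of the U7 snRNP that recognises histone precursors, had log2 fold changes of 0.04 and -0.29 that did not pass the test.

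Of 14 genes of histone gene transcription 8 fell and 0 rose, with a median of -0.41. Ccne1 (cyclin E1, which with Cdk2 activates the histone locus factor Npat) had 10.2, 7.61, 9.16 and 12.3 CPM in the KO livers, against 32.9, 32.8, 29.8 and 28.7 CPM in the controls, a log2 fold change of -1.66 (SE 0.15, adjusted p = 1.18e-06). Ccna2 (cyclin A2) had 29.3, 31.1, 30.6 and 41.2 CPM in the KO livers, against 88.96, 65.6, 87.5 and 90.3 CPM in the controls, a log2 fold change of -1.33 (SE 0.13, adjusted p = 2.81e-06). Both were lower in every KO liver than in any control. The factors specific to histone genes did not pass the test: Npat had a log2 fold change of -0.19 (SE 0.11, adjusted p = 0.267) and Hinfp, which binds H4 promoters, 0.15 (SE 0.22, adjusted p = 0.686). Of 20 histone chaperone and assembly genes 11 fell and 1 rose, with a median of -0.37. Chaf1a, the large subunit of the replication-coupled assembly factor CAF-1, averaged 19.9 ± 4.14 CPM in KO livers and 43.5 ± 3.90 CPM in controls, a log2 fold change of -1.13 (SE 0.14, adjusted p = 2.27e-05). Nasp, which holds soluble H3 and H4, averaged 50.04 ± 5.40 CPM in KO livers and 82.98 ± 7.08 CPM in controls, a log2 fold change of -0.73 (SE 0.10, adjusted p = 5.05e-05) (SD, n = 4 each). Rbbp7 was the one that rose, by 1.35 on the log2 scale.

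Histone variants that are made outside S phase, from polyadenylated RNA, had a median log2 fold change closer to 0. Of 11 such genes 7 fell and 0 rose, and their median log2 fold change was -0.44, against -1.39 for the 58 members. H3f3a, which encodes H3.3, averaged 19.01 ± 1.71 CPM in KO livers and 30.8 ± 0.933 CPM in controls, a log2 fold change of -0.70 (SE 0.11, adjusted p = 3.04e-04). H2afx, whose RNA can end in either way, averaged 47.9 ± 14.3 CPM in KO livers and 126 ± 15.8 CPM in controls, a log2 fold change of -1.39 (SE 0.19, adjusted p = 7.76e-04) (SD, n = 4 each). H1f0, the linker histone of resting and differentiated cells, did not pass the test, with a log2 fold change of 0.17 (SE 0.10, adjusted p = 0.282). The difference between the variants and the members was not tested as such.

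Genes of the cell cycle fell with the histones. Of 25 S phase and DNA replication genes 23 fell, 0 rose and the median log2 fold change was -1.02, and all 25 G2 and mitosis genes fell, with a median of -1.16. Rrm2, a subunit of the ribonucleotide reductase that supplies deoxynucleotides, averaged 29.6 ± 4.37 CPM in KO livers and 112 ± 12.7 CPM in controls, a log2 fold change of -1.91 (SE 0.11, adjusted p = 2.98e-08) (SD, n = 4 each). Birc5 (survivin), of the mitotic chromosomal passenger complex, averaged 17.6 ± 4.13 CPM in KO livers and 55.2 ± 4.73 CPM in controls, a log2 fold change of -1.65 (SE 0.14, adjusted p = 9.68e-07) (SD, n = 4 each). At an unadjusted edgeR p under 0.05 all 25 S phase genes were lower, and 0 genes of the transcription, variant, S phase or mitosis lists were higher. Set against the S phase genes of its own library, the histone level still differed in the mean. The mean log2(CPM + 0.5) of the members minus that of the 25 S phase genes was 0.12, 0.28, -0.05 and 0.45 in the KO livers, against 0.69, 0.45, 0.41 and 0.77 in the controls. The means were 0.20 ± 0.21 in KO livers and 0.58 ± 0.18 in controls (SD, n = 4 each), a difference of -0.38. The groups overlapped, since KO 278 lay above control 281, so this is given with no test.

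Markers of red-cell precursors moved with the histones. All 24 erythroid markers tested fell, with a median log2 fold change of -1.82, and their summed level was 2405 to 4851 CPM in KO livers and 9642 to 12591 CPM in controls. No marker of the list was at 0 in all libraries. The mean log2(CPM + 0.5) of the erythroid markers was 4.97, 5.34, 4.99 and 5.99 in the KO livers, against 7.30, 6.87, 7.02 and 7.35 in the controls. That of the histone members was 4.45, 4.58, 4.30 and 5.01 in the KO livers, against 6.17, 5.79, 5.79 and 6.17 in the controls. KO 278 was the highest KO liver and controls 279 and 282 the highest controls on both. Of 14 hepatocyte markers, which define the labelled tissue, 3 fell and 2 rose, with a list median log2 fold change of -0.012. They summed to 111381 to 124077 CPM in KO livers and 127471 to 158667 CPM in controls. The albumin gene Alb alone averaged 32558 ± 4519 CPM in KO livers and 68617 ± 8598 CPM in controls (SD, n = 4 each), and the other 13 summed to 84131 to 87858 CPM in KO livers and 70305 to 84647 CPM in controls. Among those 13, Ttr also fell, from 5653 ± 455 CPM in controls to 2880 ± 366 CPM in KO livers (SD, n = 4 each). Its log2 fold change was -0.97 (SE 0.10, adjusted p = 4.11e-06). Kupffer cell and macrophage markers went the other way: 11 of 12 rose and 0 fell, with sums of 1647 to 1917 CPM in KO livers and 923 to 1060 CPM in controls. Of 8 endothelial markers 6 rose and 0 fell. Of 7 megakaryocyte markers 2 fell, of 10 neutrophil markers 2 fell, and of 9 B cell precursor markers 3 fell and 1 rose, where 11.4% of all genes tested fell and 9.27% rose. The list medians were -0.58, -0.033 and -0.073 for megakaryocytes, neutrophils and B cell precursors. The part of these cell types in the histone values was not tested.

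**Figure D4:**
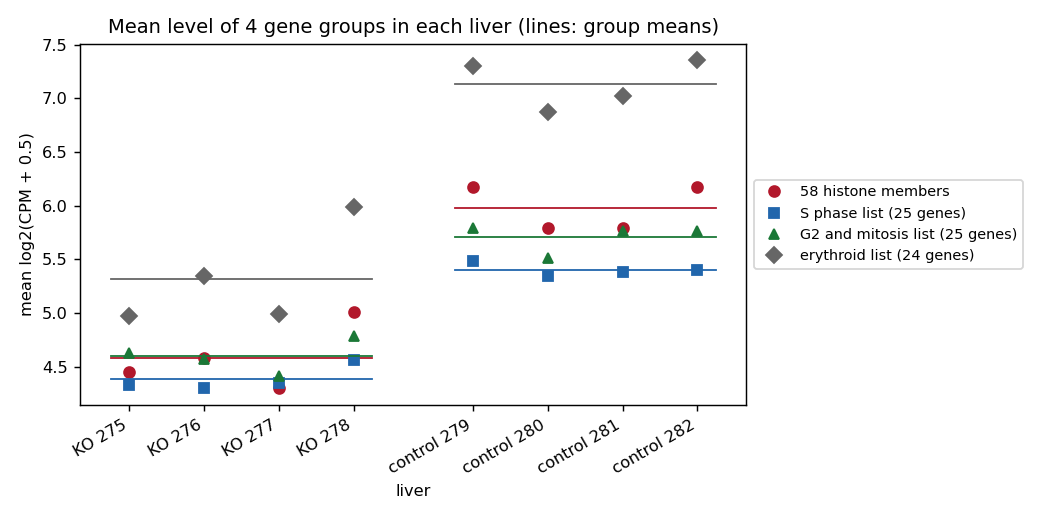
Mean log2(CPM + 0.5) of the 58 members and of the S phase, G2 and mitosis, and erythroid lists in each of the 4 KO and 4 control livers; lines are group means. The members sit between 4.30 and 5.01 in KO livers and between 5.79 and 6.17 in controls, and the erythroid list between 4.97 and 5.99 in KO livers and between 6.87 and 7.35 in controls.

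With the mean erythroid marker level as a covariate in the same edgeR fit, 0 of the 58 members passed the threshold, and 1 (Hist1h4a) had an unadjusted p under 0.05. The log2 fold changes of the members in this fit had a median of -0.094, with 39 negative and 19 positive. Their median SE was 0.33, against 0.19 without the covariate. The marker levels of KO livers and controls did not overlap, so these values rest on a fitted slope and not on livers of equal marker level. The covariate had a correlation of -0.94 with genotype (KO). From that correlation alone, the variance inflation factor of the genotype term was 8.77, which is not the change in the fitted SE. Over all genes tested 18 fell and 22 rose. The largest values left were -2.47 (SE 1.13) for Hist1h4b, -1.32 for Hist2h2be and -1.15 (SE 0.48) for Hist1h4a. In the same fit the S phase genes had a median of -0.52, with 24 of 25 negative, and the G2 and mitosis genes -0.59, with 23 of 25 negative, and 0 of either list passed the threshold. Marker level and genotype moved together, so their parts in the members' values cannot be told apart with these 8 libraries.

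**Figure D5:**
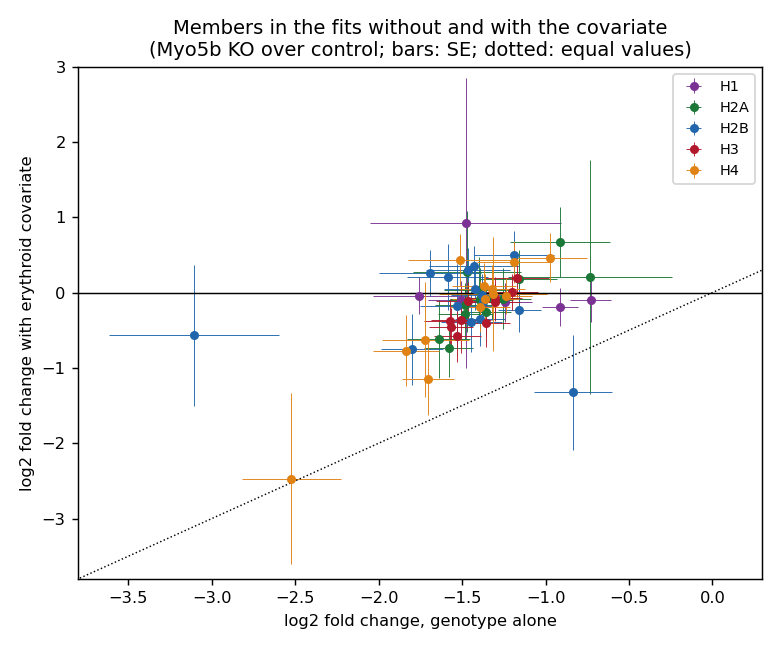
Log2 fold change (Myo5b KO over control) of each member with the erythroid covariate (y axis) against that without it (x axis), coloured by class; bars are the SE and the dotted line marks equal values. Most members lie near 0 on the y axis, with a median of -0.094 and wide bars, and Hist1h4b stays near the dotted line at -2.47.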

How the data were processed

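RNA of 8 whole livers was sequenced. The authors deposited 1 table of raw read counts by Ensembl gene. Per the labels' protocols, Rsubread 2.20.0 (R 4.4.1) aligned the reads to a build spelled GRMm38, taken to be GRCm38. Per the submitters' processing notes, featureCounts counted them. The sources used here do not give the annotation, the strand and multi-mapping settings, or how RNA was selected. Library totals ran from 14228268 to 18398039 counts, and libraries within a group differed beyond sampling noise in every pair (chi-square over degrees of freedom, 12.9 to 24).

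Groups came from the genotype labels. The test was edgeR 4.0.16's robust quasi-likelihood F-test (R 4.3.3, limma 3.58.1) with TMM scaling, after filterByExpr (minimum count 10, minimum total 15), which kept 18274 genes. P-values were adjusted by Benjamini-Hochberg over these genes with a threshold of 0.05. The SE is the log2 fold change divided by the square root of F. The fit was checked on simulated data. Each library is 1 animal, so p-values measure the spread between animals. Symbols, exons and transcripts came from GENCODE M21 and promoters from RefSeq. Levels between genes were compared by CPM per kilobase of exon where stated.

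Members, gene lists, alternatives and the naming rule were chosen with earlier results of these data known. Values in every library are given for Myo5b, for up to 3 members of each class with the highest mean CPM, the 2 with the smallest p, and the 2 members nearest the threshold on each side, and, beyond the rule, for members at the ends of each class's range. The 2 genes of smallest p are named for the histone processing, transcription, chaperone and variant lists and for hepatocytes. Only 1 is named for the S phase list and 1 for the G2 and mitosis list. The other cell type lists are given as sums, medians or counts. Further genes of the lists were chosen after their values were seen, as was the hepatocyte sum without Alb. Alternatives were other scalings (median-ratio size factors, library size), filters (none, at least 1 CPM in 4 libraries), tests (DESeq2 1.42.0, limma-voom), a non-robust dispersion, an erythroid covariate, members with 50 counts in 4 libraries, and each animal left out. Figures were drawn with matplotlib 3.10.9.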

Additional observations from a re-analysis of the deposited data

Results flagged for a closer look

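In 5 members 1 liver lay far from the other 3 of its group, by Dixon's 95% criterion, and all 5 concern KO 278. For independent groups, chance alone gives about 1 in 20 such cases, and 120 groups were looked at. Genes of 1 library are not independent and all 5 flags concern the same liver, so their count cannot show whether they arose by chance. Hist1h4f had 53.1 CPM in KO 278, against 30.4 to 32.1 CPM in the other KO livers. Hist1h1d had 392 CPM in KO 278, against 249 to 271 CPM in the others, and Hist1h1a had 121 CPM, against 54.4 to 63.8 CPM. Hist1h4c had 47.1 CPM in KO 278, against 23.8 to 26.2 CPM, and Hist2h3c2 had 100.5 CPM, against 58.2 to 63.0 CPM. KO 278 also had the highest erythroid marker level of the KO livers, 5.99 on the mean log2(CPM + 0.5) scale against 4.97 to 5.34 in the other 3. The part of this liver's marker level in its histone values was not tested.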

How the results depend on the processing

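Without KO 278 the members' median log2 fold change was -1.57 and 56 of 58 members fell. Over the 8 fits that leave out 1 animal, 54 to 56 members fell, 0 rose, and the median ran from -1.57 to -1.30. The count of members that fell was 55 with median-ratio size factors, library size alone, the 1 CPM filter (57 members in the fit) and the 50-count minimum (56 members), and 56 with no filter, DESeq2, limma-voom and non-robust dispersion; 0 members rose under any of these. Hist1h2ab passed the threshold with no filter, DESeq2, limma-voom, non-robust dispersion and without KO 278, and Hist1h1t with no filter and without KO 276. Hist4h4 did not pass it with no filter or without KO 276, KO 277 or any 1 of the 4 controls. Without the low-count filter the median of all 35319 genes was -0.11, against which the members' -1.39 should be read.
The erythroid covariate was the alternative that changed the counts: 0 members fell, their median was -0.094, and over all genes tested 18 fell and 22 rose. Under it the log2 fold change turned positive in 19 members, to 0.92 for Hist1h1t, 0.67 for Hist1h2ab, 0.50 for Hist1h2bb, 0.46 for Hist1h4c, 0.44 for Hist1h4k, 0.40 for Hist1h4f, 0.35 for Hist1h2bn, 0.30 for Hist1h2bp, 0.28 for Hist1h2ad, 0.26 for Hist1h2bj, 0.21 for Hist3h2a, 0.21 for Hist1h2bk, 0.20 for Hist1h3b, 0.19 for Hist1h2ac, 0.086 for Hist1h4m, 0.047 for Hist1h4j, 0.043 for Hist1h2bg, 0.038 for Hist1h2ai and 0.0101 for Hist1h3e, none past the threshold. The cause was not tested. The controls were littermates, but the sources used here do not give the litter of each pup, so no analysis paired by litter was possible. Hist1h1t and Hist3h2a had few counts, and neither passed the threshold in the fit reported. Whether depth was the reason was not tested.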

Other observations

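Histone pseudogenes, which are no members, also differed between the groups. Hist3h2bb-ps, a processed pseudogene on chromosome 11, lies between 58954048 and 58954512. Its nearest member is Hist3h2a, which begins at 58954685 and had a log2 fold change of -0.73 that did not pass the test. Hist3h2ba lies farther away and ends at 58949533. The pseudogene had 0.232, 0.256, 0.105 and 0.243 CPM in the KO livers, against 2.08, 2.28, 3.86 and 4.07 CPM in the controls. All KO livers lay below all controls, and the log2 fold change was -3.85 (SE 0.48, adjusted p = 2.80e-05). These values rest on 4, 4, 2 and 4 counts in the KO livers, against 32, 34, 65 and 58 counts in the controls. Only control libraries reached 10 counts, and the KO values lie near the limit of 0.158 to 0.21 CPM. The size of its fall is therefore uncertain. Of its 50-base windows 70.0% were unique. Hist3h2ba had the lowest log2 fold change of the members, at -3.11, and the pseudogene is not ranked with them. Both are genes of low level. Hist1h2al had 113, 131, 121 and 158 CPM in the KO livers, against 351, 283, 229.8 and 309 CPM in the controls, a log2 fold change of -1.16 (SE 0.13, adjusted p = 3.34e-05), with 32.4% of its windows unique, and lies on chromosome 13 between 51202727 and 51203065, outside both Hist1 stretches. Its groups did not overlap, and its level was above that of each of the 14 H2A members by CPM in both groups.

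Relative to the erythroid markers of the same library, the histone members were higher in KO livers. The mean log2(CPM + 0.5) of the members minus that of the 24 erythroid markers was -0.52, -0.76, -0.69 and -0.98 in the KO livers, against -1.13, -1.08, -1.23 and -1.18 in the controls. The groups did not overlap, with means of -0.74 ± 0.19 in KO livers and -1.15 ± 0.066 in controls (SD, n = 4 each). Both lists fell, and the erythroid list fell by more. Within the KO group, KO 278 was not the highest liver in 6 of the 58 members, among them Hist1h4b and Hist2h2be, where it was the lowest.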
